A study of Homo sapiens and Mus musculus with 8 samples.

Results

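The enzymes that build heme were followed in human K562 cells cultured with JOA (Jiyuan Oridonin A), a diterpenoid with the ent-kaurene skeleton. Their 8 genes, ALAS1, ALAS2, ALAD, UROS, UROD, CPOX, PPOX and FECH, were taken by symbol from a list of pathway enzymes, out of 35141 genes in the K562 table. All 8 passed the minimum mean of 0.5 FPKM (fragments scaled for exon length and sequencing depth) that left 15635 genes for the test. K562 is an established line from a chronic myeloid leukemia, which expresses native BCR-ABL. The cells were cultured for 48 h with 2 μM of JOA, or for 48 h without JOA as control, and 2 libraries of polyadenylated RNA were sequenced from each group. What the control cells received in place of JOA is not given in the sources used here. BaF3-T315I cells of the mouse make up the other 4 of the 8 libraries of the series and were not analysed here. Neither the labels nor the methods say whether the 2 libraries of a group came from separate cultures, so the p-values cover the spread among these 4 libraries and nothing beyond it.

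Heme is an iron-containing ring that carries oxygen in hemoglobin and electrons in cytochromes. Its synthesis starts in the mitochondrion, where the ALAS enzymes join glycine with succinyl-CoA, continues in the cytosol with ALAD, UROS and UROD, and returns to the mitochondrion with CPOX, PPOX and FECH. All cells make heme, with ALAS1 at the first step, and erythroid cells use ALAS2 in addition and make far more of it.

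The ALAS genes differ in the sequence around their start sites, which is shown here because the results below set the pair against each other. CPOX is shown as the other member, among those searched, with 2 matches of the kind marked below. The promoters below are the 250 bases before the transcript start (RefSeq, GRCh38.p14), 5′ to 3′ on the strand of the gene. Capitals mark GATAA on either strand, which is the core of the sites bound by GATA factors such as the erythroid regulator GATA1. They lie at chrX:55030978-55031227 (minus strand) for ALAS2, chr3:52197833-52198082 (plus strand) for ALAS1 and chr3:98593612-98593861 (minus strand) for CPOX.
ALAS2: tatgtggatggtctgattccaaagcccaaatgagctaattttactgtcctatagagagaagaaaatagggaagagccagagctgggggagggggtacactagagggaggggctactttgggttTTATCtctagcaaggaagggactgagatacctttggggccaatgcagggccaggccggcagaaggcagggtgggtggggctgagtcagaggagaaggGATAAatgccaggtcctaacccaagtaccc
ALAS1: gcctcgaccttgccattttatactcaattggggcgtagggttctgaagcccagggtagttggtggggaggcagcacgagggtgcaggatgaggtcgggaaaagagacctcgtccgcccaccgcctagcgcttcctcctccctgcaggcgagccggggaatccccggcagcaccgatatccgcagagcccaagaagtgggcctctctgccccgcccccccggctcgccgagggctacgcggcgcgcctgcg
CPOX: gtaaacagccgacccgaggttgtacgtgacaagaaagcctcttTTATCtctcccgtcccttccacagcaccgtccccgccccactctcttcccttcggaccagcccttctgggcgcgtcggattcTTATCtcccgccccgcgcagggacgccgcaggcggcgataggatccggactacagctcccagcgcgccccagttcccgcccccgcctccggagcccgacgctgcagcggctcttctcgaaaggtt

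GATAA was found 2 times before ALAS2, 2 times before CPOX and 0 times before ALAS1. At least 1 GATAA was present in 20.4% of the 35116 promoters of this length in the table, and at least 2 in 3.87%. In ALAS2 the matches ended 26 and 123 bases before the start. Of the other members, 1 of 2 PPOX promoters held 1 GATAA, and the promoters of ALAD, UROD and FECH held 0. For UROS no promoter was available, so it was not searched for any of the sequences named here. CACCC, the core of sites bound by the erythroid regulator KLF1, was searched on both strands too. It was found 2 times before ALAS2, in matches that share 1 base, 1 time before ALAS1 and 3 times in 1 of the PPOX promoters. The ALAD promoters, whose windows overlap, held CACCC 2 times and 1 time, and the 1 match is the same site as 1 of the 2. CACCC was present at least 1 time in 54.7% of all promoters and at least 2 times in 23.1%. The 9 bases TGACTCAGC, a form of the site of the erythroid factor NFE2, were found 1 time before ALAS2, 41 to 49 bases from the start and on the opposite strand, and in 0.456% of all promoters. These matches describe letters, and whether any factor binds there was not measured.

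Among the members, the ALAS2 transcript also starts with a hairpin of the kind bound by iron regulatory proteins, which hold back translation when iron is short. It is shown because it was found in none of the other members searched, which do not include UROS. The 28 bases below run to the end of exon 1, in the 5′ untranslated region at chrX:55030942-55030969 (minus strand), and capitals mark the loop.
ALAS2 hairpin: ttcgttcgtcctCAGTGCagggcaacag

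A loop of CAGTGN over a stem of 5 pairs and an unpaired C was found in the first 50 transcribed bases of 8 of 35116 windows (0.0228%). ALAS2 was the 1 among the members searched. The mRNA values below do not measure translation.

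The cells expressed erythroid markers. The 17 erythroid markers, which include the embryonic and fetal globins and the glycophorins, summed to 2972 and 2068 FPKM in the JOA libraries, against 5609 and 5304 FPKM in the controls. HBE1, the embryonic globin and the most abundant of them, had 1645 and 1072 FPKM with JOA against 3464 and 3227 FPKM. Of the 15 that passed the minimum mean, 13 lay below both controls in each JOA library, against 18.3% of all 15635 genes tested, and the anion exchanger gene SLC4A1 and EPB42, genes of the red cell membrane, were below the minimum mean. The 10 markers of monocytes and granulocytes summed to 42.3 and 38.4 FPKM with JOA and to 28.5 and 22.5 FPKM in the controls, with 7 of them below the minimum mean and 2 of the other 3 above both controls in each JOA library, where 36.8% of all genes tested lay. LYZ, the most abundant of them, overlapped, at 29.9 and 19.0 FPKM with JOA and 21.9 and 16.4 FPKM in the controls. ITGAM, which encodes CD11b, had 10.7 and 13.9 FPKM with JOA against 4.86 and 4.70 FPKM, and CD14 was below the minimum mean. Markers of the remaining cell types were low. The 7 megakaryocyte markers gave 8.63 and 11.5 FPKM with JOA against 6.35 and 7.15 FPKM, with 2 of 7 tested and both of these above the controls, and the 6 lymphocyte markers 16.2 and 10.2 FPKM with JOA against 8.95 and 7.77 FPKM, with 2 of 6 tested and 1 of these above the controls. With 2 or 3 genes tested per list and 36.8% of all genes above both controls, these counts do not set the lists apart. VWF and MS4A1 were listed at 0 in all 4 libraries. The 13 mitochondrially encoded mRNAs summed to 46650 and 42560 FPKM with JOA, against 57060 and 62300 FPKM in the controls. Of these, 11 lay below both controls in each JOA library, beside 18.3% of all genes tested, and MT-CO1, the most abundant, overlapped. RNA quality itself was not measured here. The part of these shifts in the results below was not tested, and in bulk RNA fewer cells of a type and less RNA per cell cannot be told apart.

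Most enzymes of heme synthesis had lower mRNA in the cells cultured with JOA. ALAS2, UROS, UROD, CPOX, PPOX and FECH, 6 of the 8 genes, lay below both controls in each JOA library, as did 18.3% of the 15635 genes tested. ALAD lay above both controls in each JOA library, as did 36.8% of the genes tested, and ALAS1 overlapped. At an unadjusted p under 0.05 from limma, a linear model fitted over all genes, 5 of the 8 were lower and 1 was higher. Of all genes tested, 5.82% were lower and 11.4% higher at this threshold. The shares at this threshold depend on the scaling of the libraries, as given further below. The median log2 fold change of the 8 genes was -0.47, beside 0.096 for all genes tested. The call needed both an adjusted p (Benjamini-Hochberg) under 0.05 and a log2 fold change of 0.58 or more in size. By this rule limma called 0 of the 8, and over all genes it called 0 higher and 0 lower (0% each), while 1787 higher and 910 lower genes passed the unadjusted threshold. With voom weights on recovered reads, limma called 0 genes as well, and 2339 higher and 929 lower genes passed the unadjusted threshold. Without control replicate 1, 2 of the 8 enzymes had an unadjusted p under 0.05, as did 574 higher and 276 lower genes of all those tested, and without control replicate 2 these numbers were 2 enzymes, 835 higher and 520 lower genes.

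**Figure D1:**
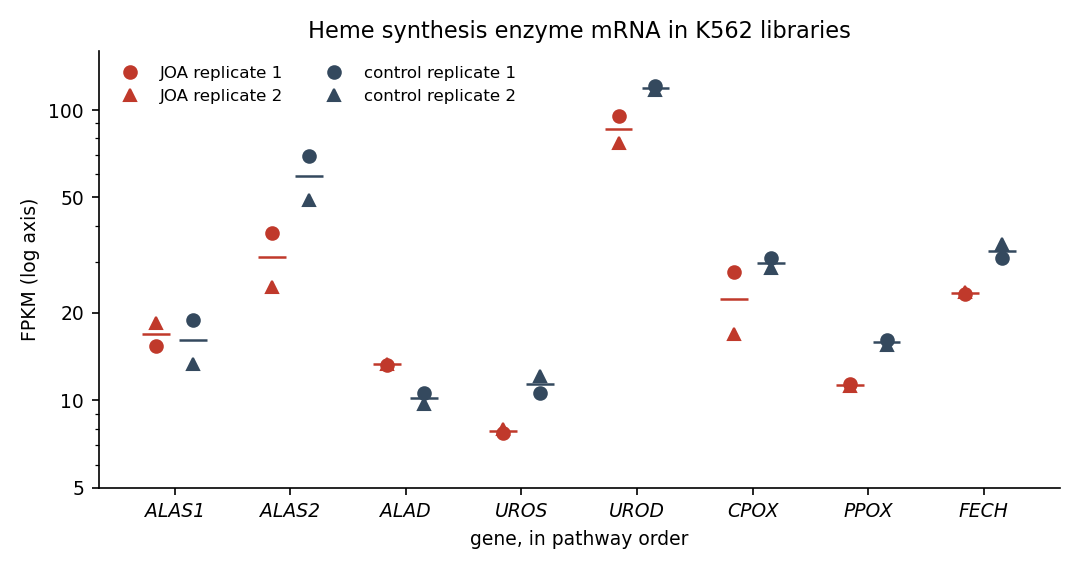
FPKM of the 8 heme synthesis genes in each K562 library (vertical log axis), with JOA libraries in red on the left of each gene, control libraries in blue on the right, circles for replicate 1, triangles for replicate 2 and bars for the mean of each group. The red points lie below the blue ones for 6 genes, above them for ALAD (13.3 and 13.4 FPKM with JOA, 10.6 and 9.72 FPKM in the controls), and between or around them for ALAS1.

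At the first step, ALAS2 had the lowest log2 fold change of the 8 genes and ALAS1 the one nearest 0. ALAS2 (ENSG00000158578, chromosome X of GRCh38 from 55009055 to 55031064, minus strand) encodes the erythroid form of the enzyme. Its level was 37.6 and 24.6 FPKM in the JOA libraries, against 69.7 and 49.2 FPKM in the controls. The JOA values did not overlap those of the controls, though both pairs of replicates stood far apart. The log2 fold change of -0.93 (95% interval -1.62 to -0.24) had an unadjusted p of 0.0186 and an adjusted p of 0.256 from limma. Only 0.9% of all genes tested had a lower log2 fold change. ALAS1 (ENSG00000023330, chromosome 3 from 52198086 to 52214327, plus strand) encodes the housekeeping form. It had 15.4 and 18.5 FPKM in the JOA libraries, between the 18.9 and 13.4 FPKM of the controls. The log2 fold change was 0.079 (95% interval -0.45 to 0.60, adjusted p = 0.843 from limma), an interval that holds the fold threshold on the upper side. Its sign turned with the scaling, from 0.18 with each library scaled to the same sum (TPM scaling) to -0.062 with median-ratio scaling. The median of all genes moved too, and relative to it ALAS1 lay between -0.033 and 0.064 over TPM scaling, median-ratio scaling and quantile normalization.

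Set against each other within a library, ALAS2 stood at 2.45 and 1.33 times the FPKM of ALAS1 in the JOA libraries, and at 3.68 times in each control. The ratio does not depend on the scaling of a library. The control replicates nearly coincided in it, while the JOA replicates differed, and both lay below the controls. The standard deviation of counting alone is 2.99% and 3.58% of the ALAS1 reads of control replicates 1 and 2. The control ratios are thus closer than counting alone would give, and their SD below understates the spread of the controls. Of the FPKM of both genes, ALAS2 held 71.0% and 57.2% with JOA and 78.6% in each control. On the log2 scale the ratio was 0.85 ± 0.62 with JOA and 1.88 ± 0.00067 in the controls (SD, n = 2 libraries each), a difference of -1.02. The exact two-sided permutation test gave p = 0.333, the smallest p that 2 libraries against 2 allow. Leaving out JOA replicate 2 gave a difference of -0.58, and leaving out JOA replicate 1 gave -1.46. Together, both genes gave 53.0 and 43.1 FPKM with JOA, against 88.6 and 62.5 FPKM in the controls.

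**Figure D2:**
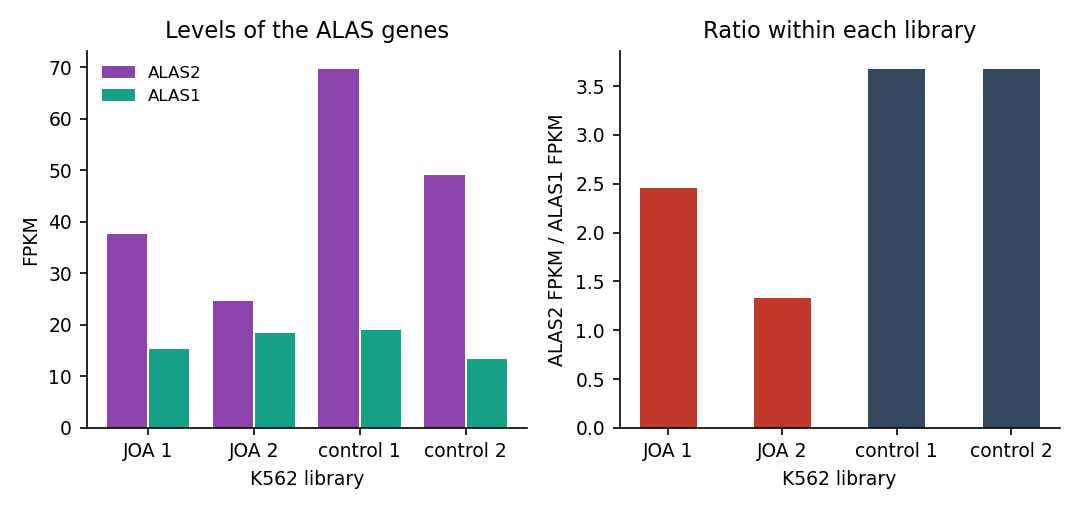
Left, FPKM of ALAS2 (purple) and ALAS1 (green) in each K562 library, JOA libraries first. Right, FPKM of ALAS2 divided by that of ALAS1 in the same library, with JOA in red and control in blue. The ratio is 2.45 and 1.33 with JOA and 3.68 in both controls.

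In the cytosol, ALAD stood apart from the other members. ALAD (ENSG00000148218, chromosome 9 from 113386317 to 113401333, minus strand), which joins pairs of aminolevulinic acid into porphobilinogen, had 13.3 and 13.4 FPKM in the JOA libraries, against 10.6 and 9.72 FPKM in the controls. Both JOA values lay above both controls and nearly coincided. The log2 fold change was 0.37 (95% interval 0.098 to 0.65), with an unadjusted p of 0.0180 and an adjusted p of 0.256 from limma. Relative to the median of all genes it was 0.28, and 80.4% of the genes tested had a lower value. With median-ratio scaling the log2 fold change was 0.24 (95% interval -0.075 to 0.55, unadjusted p = 0.109 from limma), and the interval held 0. With TPM scaling and quantile normalization it was 0.48 and 0.33, with intervals above 0.

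UROS (ENSG00000188690, chromosome 10 from 125784980 to 125823285, minus strand) closes the linear precursor into the ring uroporphyrinogen III. The JOA libraries gave 7.731 and 7.997 FPKM, against 10.6 and 12.2 FPKM in the controls. The gap between the groups was wider than that between the replicates of either. Its log2 fold change was -0.50 (95% interval -0.81 to -0.19, adjusted p = 0.240 from limma). UROD (ENSG00000126088, chromosome 1 from 45012147 to 45015575, plus strand), which trims the side chains of the ring to give coproporphyrinogen III, was the most abundant member. It had 95.5 and 76.7 FPKM with JOA, against 121 and 117 FPKM in the controls. The groups did not overlap, and the JOA replicates differed from each other about as much as the nearer of them from the controls. The log2 fold change was -0.47 (95% interval -0.82 to -0.12, adjusted p = 0.256 from limma).

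The mitochondrial enzymes at the end of the pathway were lower by similar amounts. CPOX (ENSG00000080819, chromosome 3 from 98579446 to 98593723, minus strand) oxidises coproporphyrinogen III to protoporphyrinogen IX. Its level was 27.8 and 16.9 FPKM in the JOA libraries, against 30.9 and 28.7 FPKM in the controls. JOA replicate 1 lay just under the lower control, and JOA replicate 2 far below it. The log2 fold change was -0.45 (95% interval -1.09 to 0.19, adjusted p = 0.380 from limma), and it was -0.80 when JOA replicate 1 was left out and -0.098 when JOA replicate 2 was. With TPM scaling the groups overlapped for CPOX, so that 5 members in place of 6 were lower in each JOA library.

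PPOX (ENSG00000143224, chromosome 1 from 161166410 to 161178013, plus strand) oxidises protoporphyrinogen IX to protoporphyrin IX. It had 11.4 and 11.2 FPKM with JOA, against 16.2 and 15.5 FPKM in the controls. The replicates of each group lay close together and the groups far apart for their spread, and PPOX had the smallest unadjusted p of the members, 0.00580 from limma. Its log2 fold change was -0.47 (95% interval -0.73 to -0.21, adjusted p = 0.236). B4GALT3 lies on the opposite strand and shares 1118 bases, or 24.3%, of the exon length of PPOX. B4GALT3 had 21.9 and 17.6 FPKM in the JOA libraries and 20.9 and 21.0 FPKM in the controls, and whether reads were counted by strand is not given in the sources used here.

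FECH (ENSG00000066926, chromosome 18 from 57548283 to 57586772, minus strand), the ferrochelatase that places iron in the ring, had 23.3 and 23.6 FPKM in the JOA libraries, against 30.9 and 34.6 FPKM in the controls. Both JOA values lay below both controls, and the JOA replicates differed less than the controls. The log2 fold change was -0.47 (95% interval -0.74 to -0.20), with an unadjusted p of 0.00726 and an adjusted p of 0.238 from limma.

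**Figure D3:**
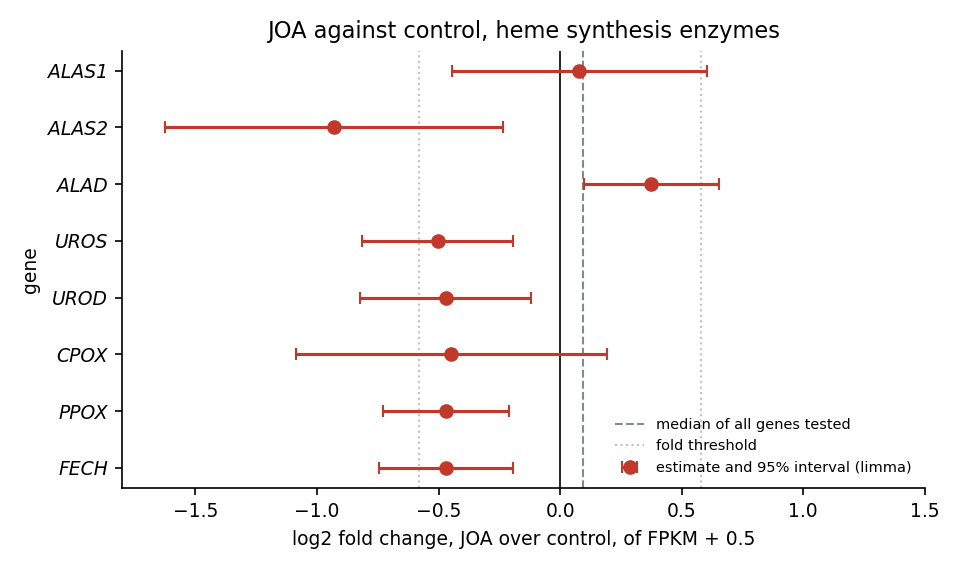
Log2 fold change of FPKM + 0.5, JOA over control, for each heme synthesis gene, with the 95% interval from limma as a bar, the median of all genes tested (0.096) as a dashed line and the fold threshold of 0.58 in each direction as dotted lines. UROS, UROD, CPOX, PPOX and FECH lie between -0.50 and -0.45, ALAS2 lies at -0.93 and ALAD at 0.37, and the intervals of ALAS1 and CPOX hold 0.

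UROS, UROD, CPOX, PPOX and FECH thus had JOA means of 69.1% to 75.0% of the control means, while that of ALAS2 was 52.4% and that of ALAD 131%. For ALAS1 it was 105%. Summed over the 8 genes, the JOA libraries held 232 and 193 FPKM and the controls 309 and 280 FPKM. UROD makes up much of this sum, and without it the values were 136 and 116 FPKM with JOA, against 188 and 163 FPKM in the controls.

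The order of the members changed little. With JOA it ran UROD, ALAS2, FECH, CPOX, ALAS1, ALAD, PPOX, UROS, from the highest mean of 86.1 FPKM to the lowest of 7.86 FPKM. The libraries of FECH and CPOX, and those of CPOX and ALAS1, overlapped in this order. In the controls it ran UROD, ALAS2, FECH, CPOX, ALAS1, PPOX, UROS, ALAD, with means between 119 and 10.2 FPKM, and the neighbours ALAS1 and PPOX, and UROS and ALAD, overlapped. ALAD thus stood last in the controls and above PPOX and UROS with JOA. The control means lay between the 68.9th (ALAD) and the 98.4th (UROD) percentile of all genes tested. These levels are per exon length, and that of UROS is divided by a long exon length. It was taken as 6643 bases, the shortest length found at which the UROS values give whole reads.

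How far the replicates differed depended on the member. JOA replicate 2 held 0.655 times the FPKM of JOA replicate 1 for ALAS2, 0.608 times for CPOX and 0.803 times for UROD, and 1.203 times for ALAS1. For ALAD, UROS, PPOX and FECH the ratio lay between 0.981 and 1.03. Control replicate 2 held 0.705 times the FPKM of control replicate 1 for ALAS2 and 0.706 times for ALAS1, and between 0.914 and 1.15 times for the others. The members were read from 780 reads (ALAS1, control replicate 2) to 8175 reads (UROD, control replicate 1). The standard deviation of counting alone is 3.58% and 1.11% of these read numbers, and does not cover the spread between libraries.

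With 1 library left out in turn, ALAS1 turned from 0.32 without control replicate 1 to -0.16 without control replicate 2. The 6 lower members and ALAD could not change sign, since both JOA values lay on the same side of both controls. For these, only the size of the change could move. ALAS2 lay at -1.23 without JOA replicate 1, -0.63 without JOA replicate 2, -0.68 without control replicate 1 and -1.18 without control replicate 2. PPOX moved least, between -0.50 and -0.44. With 14 alternatives in all, limma called none of the 8 in any, and the lowest adjusted p was 0.0902, of ALAS2 with the replicate number as a block. Scaling moved the median of all genes between -0.029 with median-ratio scaling and 0.20 with TPM scaling. Relative to that median, over the scalings, ALAS2 stayed between -1.04 and -0.87, ALAD between 0.26 and 0.33 and FECH between -0.58 and -0.44.

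**Figure D4:**
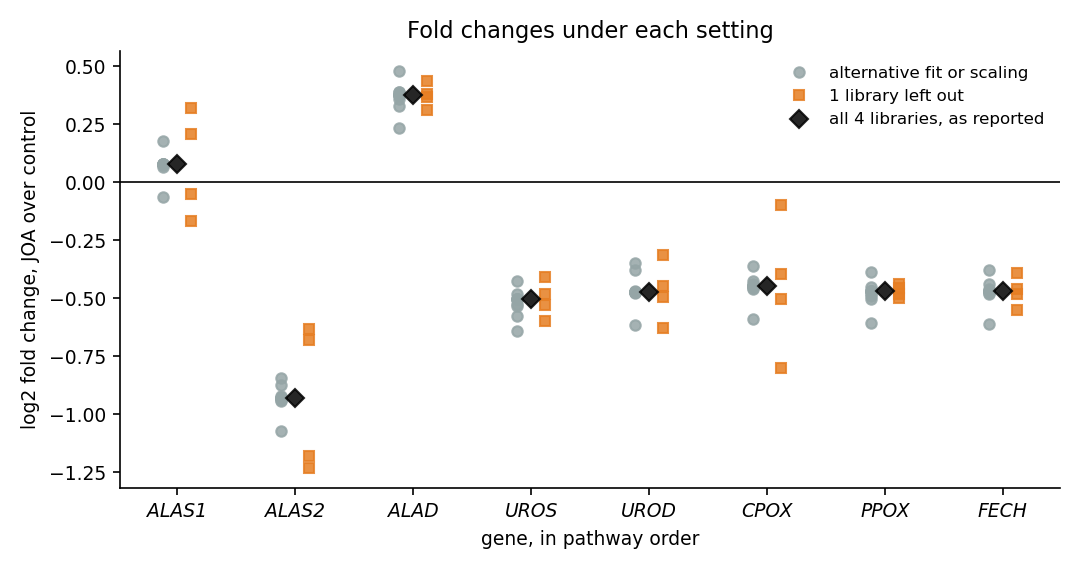
Log2 fold change of each heme synthesis gene, JOA over control, with all 4 libraries as reported (black diamonds), with another fit, filter, pseudocount or scaling (grey circles) and with 1 library left out (orange squares). ALAS1 lies on both sides of 0, CPOX spreads from -0.80 to -0.098, and ALAS2, UROS, UROD, PPOX and FECH stay below 0 and ALAD above it.

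Genes that work beside the enzymes had list medians nearer 0, with single members as far below 0 as most of the enzymes. The 9 tested genes of porphyrin and heme transport had a median log2 fold change of -0.061, and 3 lay below and 1 above both controls in each JOA library, beside 18.3% and 36.8% of all genes tested. The most abundant, TMEM14C, which brings protoporphyrinogen IX into the mitochondrial matrix, had 137 and 130 FPKM with JOA against 140 and 138 FPKM in the controls. ABCB10, a transporter of the inner mitochondrial membrane needed for heme synthesis in erythroid cells, had 21.3 and 20.8 FPKM with JOA, against 34.4 and 39.0 FPKM in the controls. Its log2 fold change of -0.79 (95% interval -1.07 to -0.50, unadjusted p = 0.000922 and adjusted p = 0.227 from limma) was the lowest of this list.

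For mitochondrial iron and the assembly of iron-sulfur clusters, 16 of 17 genes were tested, with a median of -0.10, and 7 were lower and 1 higher in both JOA libraries, beside 18.3% and 36.8% of all genes tested. At an unadjusted p under 0.05 from limma, 5 were lower and 0 higher, beside 5.82% and 11.4% of all genes. SLC25A37, or mitoferrin-1, the iron importer of erythroid mitochondria, had 62.0 and 53.9 FPKM with JOA, against 81.4 and 88.7 FPKM in the controls, a log2 fold change of -0.55 (adjusted p = 0.236 from limma). GLRX5, a glutaredoxin of cluster assembly, had 15.98 and 15.08 FPKM with JOA against 22.0 and 20.6 FPKM. BOLA3, which helps to pass clusters on, had 9.28 and 8.30 FPKM with JOA against 14.72 and 11.97 FPKM. The most abundant gene of the list, the chaperone HSPA9, overlapped, at 138 and 186 FPKM with JOA and 165 and 167 FPKM in the controls.

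Of the 9 genes of substrate supply and of the handling of the ALAS proteins, 4 were lower and 1 higher in both JOA libraries (18.3% and 36.8% of all genes tested), with a median log2 fold change of -0.12. CLPP, the protease subunit that works with CLPX, had 21.4 and 23.9 FPKM with JOA, against 31.0 and 30.3 FPKM in the controls (log2 fold change -0.43, adjusted p = 0.240 from limma). LONP1, another mitochondrial protease, was the most abundant and overlapped, at 68.4 and 104 FPKM with JOA and 70.9 and 92.6 FPKM in the controls. SLC25A38, the glycine carrier of the mitochondrion, had 26.2 and 26.7 FPKM with JOA against 29.3 and 28.2 FPKM, and is named after its values were seen. The 3 genes of heme A synthesis and of heme attachment to cytochromes had a median of -0.037, and HCCS alone was lower in both JOA libraries, at 15.8 and 15.0 FPKM against 21.7 and 18.1 FPKM in the controls. limma called 0 genes of any of these lists.

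**Figure D5:**
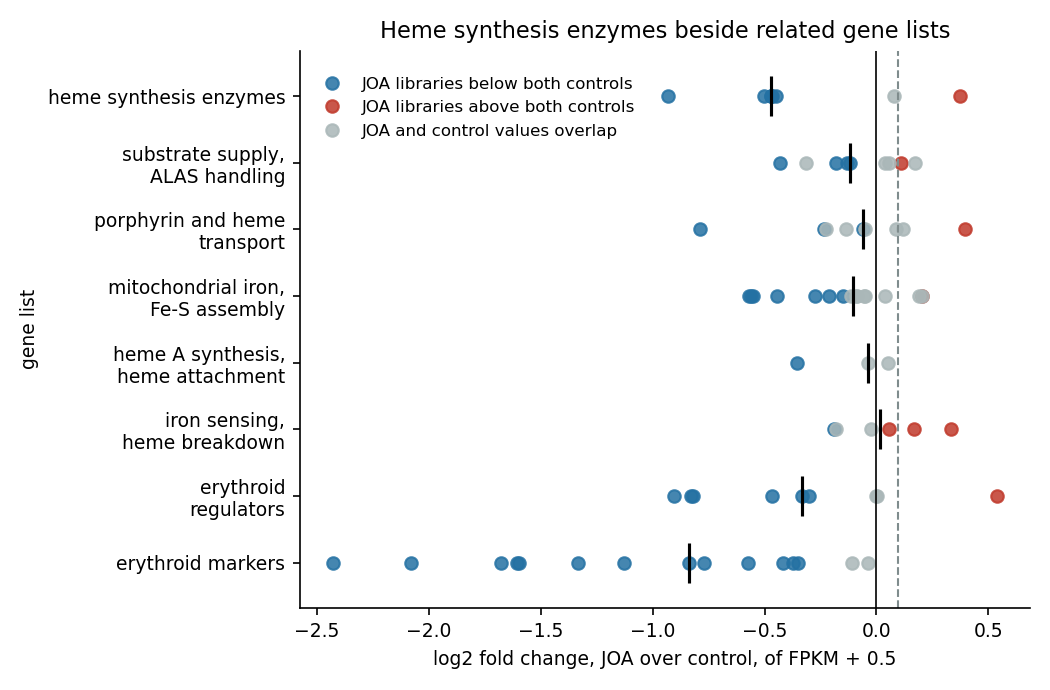
Log2 fold change of FPKM + 0.5, JOA over control, for each tested gene of the heme synthesis enzymes and of 7 related lists. Blue points are genes below both controls in each JOA library, red points are above them, grey points overlap, black bars are list medians and the dashed line is the median of all genes tested. The median of the enzymes is -0.47, that of transport -0.061, that of iron and iron-sulfur assembly -0.10 and that of the erythroid markers -0.84.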

How the data were processed

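The mRNA of K562 cells cultured with JOA or without it was sequenced from TruSeq Stranded mRNA libraries, 2 per group. The deposited values are FPKM, which the authors made before deposit. Per the submitters' processing notes, HTSeq, Cufflinks, HISAT2 and Trimmomatic were used, with no version or role, and the builds were hg38 and mm10. The study's methods name TPM. The columns, however, sum to between 279600 and 302000, and the annotation release is not given in the sources used here. Symbols were matched for 34749 of 35141 genes (98.9%). Read numbers were recovered as the depth at which FPKM multiplied by the exon length in GENCODE 29 gives whole reads. It was 23112802 and 22625602 reads with JOA and 23292640 and 23005478 reads in the controls, where 96.2% to 96.3% of genes under 1000 reads came to whole numbers within 0.05. UROS and CPOX did not give whole reads, within 0.002, at the 9532 and 3232 bases of GENCODE 29. The shortest lengths found that did were 6643 and 3666 bases, and these were used. The other 6 members gave whole reads at the lengths of GENCODE 29. The sources used here name no molecular identifiers, so the counting errors given cover counting alone.

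limma 3.58.1 in R 4.3.3 tested log2(FPKM + 0.5), with a variance trend and without covariates, where the mean over the libraries reached 0.5 FPKM. Fold changes are on this scale, which understates those of low genes. The test was two-sided, with 2 residual degrees of freedom before moderation. The script was run on data simulated from its own fitted spread, where only the estimated fold change was checked. That check does not show how often real changes are called. The fold threshold is that of the study's methods, and the adjustment of p-values was added. The alternatives were other pseudocounts, minimum means and scalings, a fit without the trend, a replicate block, voom weights on reads (genes with at least 10 reads in at least 2 libraries) and leaving out each library. The members and lists were chosen with earlier results of these data known. Not every enzyme of the pathway, and not every gene that the rule below names, is reported here. In each other list, names were taken from the most abundant gene and up to 4 genes with the smallest unadjusted p under 0.05 whose JOA libraries lie on the same side of both controls. Tables and plots were made in Python 3.11.15 with numpy 2.4.6, pandas 2.3.3, matplotlib 3.10.9 and scipy 1.17.1.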

Additional observations from a re-analysis of the deposited data

How the results depend on the processing

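No direction of ALAS2, ALAD, UROS, UROD, CPOX, PPOX or FECH changed under any of the 14 alternatives, and none of the 8 enzymes was called in any. ALAS1 turned to -0.062 with median-ratio scaling, and ran from -0.16 to 0.32 with 1 library left out. Of the 8 enzymes, 6 had an unadjusted p under 0.05 from limma, as with TPM scaling and quantile normalization, and 5 did with median-ratio scaling. Fewer did without either control, as given above. Over all 15635 genes the same threshold was passed by 1787 higher and 910 lower genes as reported, by 574 and 276 without control replicate 1 and by 2634 and 1430 without JOA replicate 1, so the count of enzymes moved along with that of all genes. Restricting the test to a mean of at least 5 FPKM gave 2 higher and 2 lower calls, and 0 among the 8 enzymes. With the replicate block, 7 of the 8 enzymes had an unadjusted p under 0.05, as did 2568 higher and 1532 lower genes of all tested, and 0 enzymes were called. Same-numbered libraries deviated together with a correlation of 0.19 across genes, and with 2 pairs this does not show that the numbers pair the libraries. The count of enzymes lower in both JOA libraries, recomputed after the data were seen, was 5 with TPM scaling and 6 with the other scalings. With 2 libraries per group and 2 residual degrees of freedom, a miss of the threshold does not show that a gene was unaffected. The cause of these shifts was not tested.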

Other observations

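Of 10 regulators that direct erythroid genes, 9 were tested. Of the 9, 6 lay below and 1 above both controls in each JOA library, beside 18.3% and 36.8% of all genes tested, and the median log2 fold change was -0.33, beside 0.096 for all genes tested. KLF1, the erythroid Krüppel-like factor, had 61.9 and 51.9 FPKM with JOA, against 108 and 93.1 FPKM in the controls, a log2 fold change of -0.82 (adjusted p = 0.227 from limma). NFE2, the factor with a form of its site searched above, had 66.5 and 44.5 FPKM with JOA against 98.8 and 106 FPKM. Whether NFE2 binds before ALAS2 in these cells was not measured. LMO2, a bridging protein of the GATA1 complex, had 8.57 and 6.77 FPKM with JOA against 13.9 FPKM in each control. GATA1 was the most abundant, at 197 and 172 FPKM with JOA and 239 and 215 FPKM in the controls (log2 fold change -0.30, 95% interval -0.61 to 0.011). MYB, a factor of early progenitors, was higher in both JOA libraries, at 52.1 and 47.1 FPKM against 32.5 and 35.6 FPKM. limma called 0 of the 9.

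Of 6 tested genes of heme breakdown and iron sensing, 3 were higher and 1 was lower in both JOA libraries, near the 36.8% and 18.3% of all genes tested. Their median log2 fold change was 0.016, beside 0.096 for all genes. The inducible heme oxygenase HMOX1 was near 0 in every library, with at most 0.0184 FPKM, and was not tested. BACH1, a repressor of HMOX1 that heme inactivates, had 17.1 and 16.8 FPKM with JOA, against 12.72 and 13.98 FPKM in the controls, a log2 fold change of 0.33 (adjusted p = 0.264 from limma). BLVRB, a biliverdin reductase and the most abundant gene of the list, had 194 and 200.2 FPKM with JOA, against 217 and 233 FPKM in the controls (log2 fold change -0.19, adjusted p = 0.356).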
